A study of Mus musculus with 8 samples.

Results

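The genes described here are 33 genes of cholesterol and fatty acid synthesis, followed in the mSCC-20 line, which derives from a squamous cell carcinoma of the skin of FVB/N mice. They were taken as a given list, chosen with earlier results of these data known and matched by gene name. All 33 were found among the 30139 gene names on the array, with 49 probes between them. The brightest probe stood for each gene. Total RNA was hybridised in a single colour (Cy3) to 8 Agilent mouse arrays, 2 from cells transfected with miR-193b-3p, 2 from cells transfected with miR-365a-3p and 4 from cells transfected with a control microRNA (NC). Every group is thus the same tumour line plus a transfected small RNA, and the labels do not say whether the samples of a group were separate cultures, so the p-values below measure the spread between these samples, which may be technical.

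An amount in µg is also stated for each sample, without saying what it measures. It is 0.2 for both miR-193b arrays and NC replicates 1 and 2, and 0.6 for both miR-365a arrays and NC replicates 3 and 4. Each microRNA was set against the NC arrays with its own amount label, and no NC array served in both comparisons. The whole 0.6 set lay on slide 4, whereas in the 0.2 set miR-193b replicate 1 and NC replicate 1 shared slide 1, miR-193b replicate 2 was on slide 3 and NC replicate 2 on slide 2. Amount, slide and scan therefore cannot be told apart between the sets.

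Cholesterol is built from acetyl-CoA through mevalonate, isoprenoid diphosphates, squalene and lanosterol, and long-chain fatty acids are built from the same acetyl-CoA pool by carboxylation, chain synthesis, elongation and desaturation. The SREBP transcription factors, encoded by Srebf1 and Srebf2, switch on most genes of both pathways; Scap escorts them out of the endoplasmic reticulum when sterol is low, and Insig proteins hold Scap back when sterol is high. In skin, keratinocytes use these lipids for the permeability barrier, and many carcinomas use them for membrane growth.

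The mature sequences of the transfected microRNAs are given because they define the treatments. They are the mouse RefSeq entries (GRCm38.p6), in which the second is named miR-365-3p, and capitals mark the seed, bases 2 to 8.
mmu-miR-193b-3p: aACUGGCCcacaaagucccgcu
mmu-miR-365-3p: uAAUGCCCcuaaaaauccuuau
The first is at chr16:13449570-13449591 (plus strand). The second has identical copies at chr16:13453895-13453916 and chr11:79726467-79726488, both on the plus strand. The seeds, ACUGGCC and AAUGCCC, differ.

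Promoters of 4 members are shown, 3 of genes that fell after miR-365a and the one member promoter that held the sterol regulatory element searched for. Each runs from 250 bases before to 50 bases after the annotated start (RefSeq, GRCm38.p6), with capitals for the CCAAT box on either strand (ATTGG when read from the other strand) and for the sterol regulatory element. Sc5d is at chr9:42264251-42264550 (minus strand), Cyp51 at chr5:4104648-4104947 (minus strand), Srebf2 at chr15:82147019-82147318 (plus strand) and Hmgcs1 at chr13:119690101-119690400 (plus strand).
Sc5d: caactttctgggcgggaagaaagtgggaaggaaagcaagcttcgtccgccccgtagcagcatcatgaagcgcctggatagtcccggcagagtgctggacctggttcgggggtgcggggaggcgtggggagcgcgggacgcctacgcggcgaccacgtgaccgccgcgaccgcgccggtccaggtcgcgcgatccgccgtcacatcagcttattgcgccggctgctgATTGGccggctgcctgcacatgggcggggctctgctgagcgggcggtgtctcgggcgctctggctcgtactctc
Cyp51: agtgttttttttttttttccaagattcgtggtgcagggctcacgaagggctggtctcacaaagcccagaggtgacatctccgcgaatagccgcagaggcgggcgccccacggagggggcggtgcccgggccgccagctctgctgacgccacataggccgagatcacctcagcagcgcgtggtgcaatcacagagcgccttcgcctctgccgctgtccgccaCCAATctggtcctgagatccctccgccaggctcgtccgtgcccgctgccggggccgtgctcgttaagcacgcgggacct
Srebf2: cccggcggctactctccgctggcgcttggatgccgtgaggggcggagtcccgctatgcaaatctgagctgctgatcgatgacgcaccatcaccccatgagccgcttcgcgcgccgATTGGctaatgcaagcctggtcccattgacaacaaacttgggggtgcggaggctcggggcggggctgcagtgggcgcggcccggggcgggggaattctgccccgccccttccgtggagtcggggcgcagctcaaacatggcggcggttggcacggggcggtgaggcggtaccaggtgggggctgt
Hmgcs1: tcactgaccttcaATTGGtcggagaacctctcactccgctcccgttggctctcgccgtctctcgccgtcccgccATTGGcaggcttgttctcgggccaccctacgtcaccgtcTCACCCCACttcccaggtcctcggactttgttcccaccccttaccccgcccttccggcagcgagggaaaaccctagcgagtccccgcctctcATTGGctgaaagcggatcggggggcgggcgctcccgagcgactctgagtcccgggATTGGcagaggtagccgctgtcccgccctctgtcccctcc

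A promoter window was held for 26 of the 33 members. The CCAAT box, the site of the factor NF-Y that works beside SREBPs on sterol genes, was in 20 of the 26 (76.9%), against 41.1% of 27025 genes with such windows. The GC box GGGCGG was in 22 of 26 (84.6%), against 38.2% of all genes, and the E-box CACGTG in 6 of 26 (23.1%), against 8.09%. The sterol regulatory element, searched as TCACNCCAC on both strands, was in 1 of 26, the Hmgcs1 window, where its position was -137 relative to the start, against 1.44% of all genes. No motif is contained in another. Of the 8 members called after miR-365a, 4 had a window (Sc5d, Cyp51, Srebf2 and Acly). All 4 held a CCAAT box and a GC box, 1 held an E-box and 0 held the exact pattern TCACNCCAC. Sterol elements spelled otherwise were not searched for. These are matches of letters in a short window and carry no test.

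Values are given as normalised log2 signal, the log2 processed signal minus the 75th percentile of the gene spots on that array. Every member passed the filter on dim probes, and 32 of 33 were well above background on all 8 arrays; Abca1 was on 7. Between 51.4% and 54.6% of gene spots per array of the 0.2 set were well above background, and between 58.9% and 62.1% in the 0.6 set; no spot was saturated. As a check of the cell type, all 10 keratinocyte markers (Krt5, Krt14, Krt8, Krt18, Trp63, Epcam, Cdh1, Dsp, Jup and Perp) were well above background on every array. Their summed linear level, in units of the 75th percentile, was 792 to 819 on the miR-193b arrays and 647 to 655 on NC arrays of that set, and 727 to 858 on the miR-365a arrays and 701 to 768 on NC arrays of that set. The fibroblast genes Col3a1, Dcn and Lum, the leukocyte gene Lyz2, the adipocyte genes Adipoq and Lep and the sebocyte genes Awat2 and Elovl3 were not well above background on any array. Of each list, both arrays of a group were well above background for 1 or 2 of 6 fibroblast markers, 3 of 6 leukocyte markers, 1 of 6 adipocyte markers and 1 to 3 of 6 sebocyte markers. Those on all 8 arrays were Pdgfra (fibroblast), Cd3e, Cd68 and Itgam (leukocyte), Fabp4 (adipocyte) and Scd3 (sebocyte). Itgam read 1.29 to 2.47, above the keratinocyte marker Cdh1 at -1.52 to -0.44. The part of these levels in the results below was not tested.

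After miR-193b, 0 of the 33 members passed limma's test at an adjusted p under 0.05, where 2.9% of the 17849 genes tested did. Of the 33 members, 10 had an unadjusted p under 0.05, beside 21.4% of all genes. The members' median log2 difference, miR-193b minus NC, was 0.27, against 0.05 over all genes tested. Of the members, 23 were above 0 and 10 below, where 44.4% of all genes were below 0. A median of this size was not particular to the members. The 10 keratinocyte markers had a median of 0.30 in the same comparison, with 8 above 0 and 2 below. Both miR-193b arrays lay above both NC arrays for 16 members (48.5%, against 30% of all genes) and below them for 3 (9.09%, against 22.4%). Against the mean of their NC arrays the members' median was 0.28 and 0.14 on the 2 miR-193b arrays, and it was 0.07 and -0.07 on the NC arrays themselves. Within slide 1 the members' median difference was 0.21, and between slides 3 and 2 it was 0.15.

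After miR-365a, 8 of the 33 members had an unadjusted p under 0.05 (24.2%), beside 31.3% of all genes. The same 8 were called at an adjusted p under 0.05, beside 15.8% of all genes. Of these, 6 fell (18.2% of members, against 8.04% of all genes): Sc5d, Cyp51, Sqle, Srebf2, Stard4 and Fads1. The other 2, Acly and Scd1, rose (6.06% of members, against 7.8% of all genes). The median log2 difference of the members, miR-365a minus NC, was -0.12, against 0.02 over all genes. Of the members, 20 were below 0 and 13 above, where 47% of all genes were below 0. Both miR-365a arrays lay below both NC arrays for 14 members (42.4%, against 27.8% of all genes) and above them for 8 (24.2%, against 33.8%). On the 2 miR-365a arrays the members' median against the NC mean was -0.06 and -0.17; on the NC arrays it was 0.04 and -0.04. The calls rest on few arrays: without miR-365a replicate 1, miR-365a replicate 2 or NC replicate 3 the only member still called was Sc5d, and without NC replicate 4 they were Sc5d and Stard4. Scd1 was not called in any of the 8 fits that left out 1 array, and Cyp51 was called in 2 of them.

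**Figure D1:**
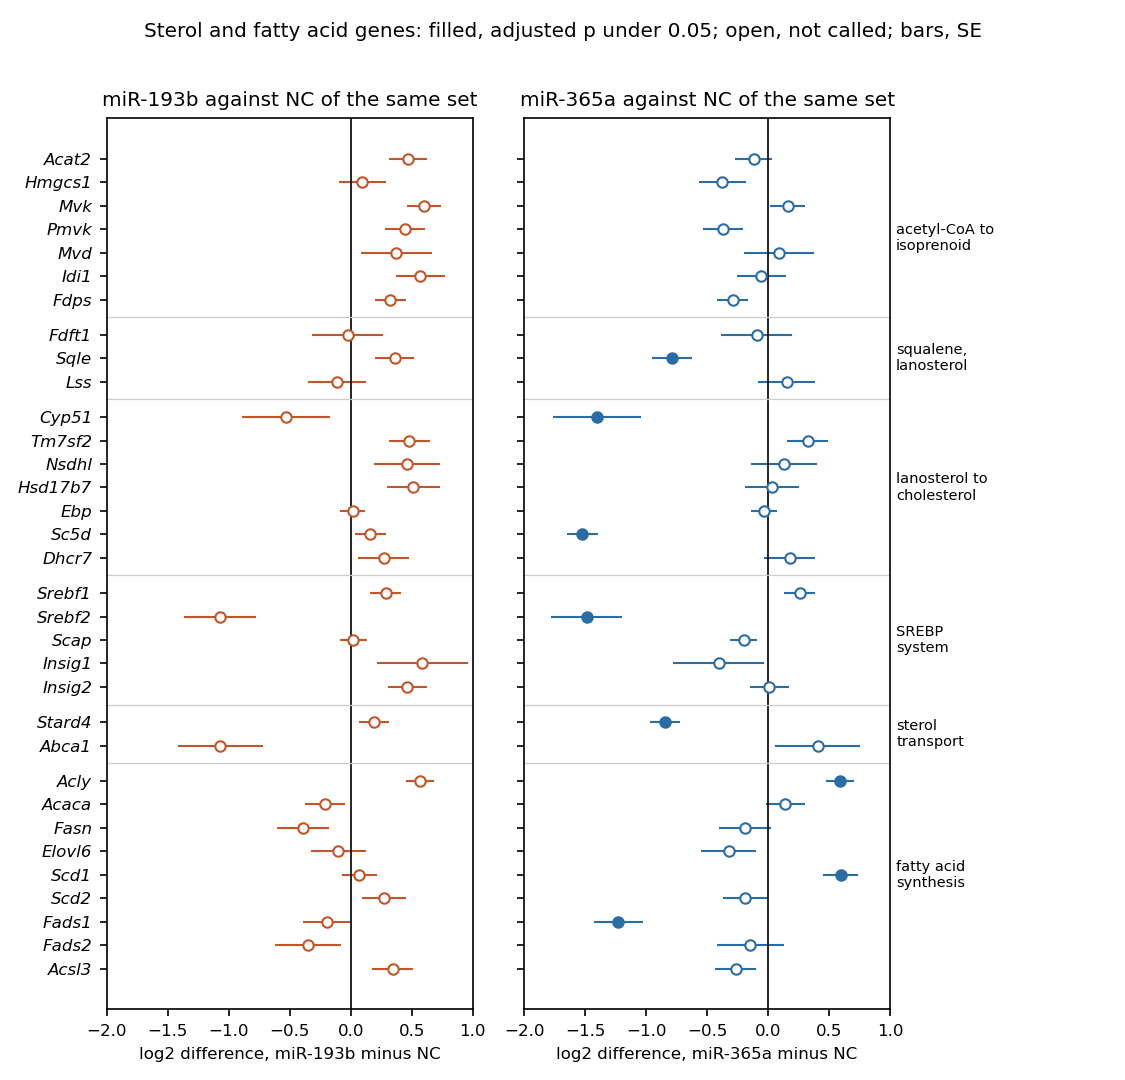
Log2 difference of each member from NC (horizontal axis) after miR-193b (left panel) and miR-365a (right panel), in pathway order down the page; bars are the standard error of the limma fit, with 2 arrays against 2. Filled points have an adjusted p under 0.05: none of the 33 in the miR-193b panel, and 8 in the miR-365a panel, from -1.52 for Sc5d to 0.60 for Scd1.

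The first block of the pathway runs from acetyl-CoA to farnesyl diphosphate. It comprises Acat2, the cytosolic thiolase that joins acetyl-CoA units, Hmgcs1, which makes HMG-CoA, the kinases Mvk and Pmvk and the decarboxylase Mvd, which turn mevalonate into isopentenyl diphosphate, its isomerase Idi1, and Fdps, which makes farnesyl diphosphate. None of the 7 was called by limma after either microRNA, beside 2.9% of all genes after miR-193b and 15.8% after miR-365a. An unadjusted p under 0.05 was held by 5 after miR-193b, beside 21.4% of all genes, and by 0 after miR-365a, beside 31.3%. After miR-193b all 7 log2 differences were above 0, with a median of 0.44, although Hmgcs1 was below 0 with the deposited log2 values and without miR-193b replicate 1 or NC replicate 2. Mvk read 3.43 and 3.20 on the miR-193b arrays, against 2.76 and 2.68 on NC arrays 1 and 2, groups that do not overlap; its difference was 0.60 ± 0.14 (SE, adjusted p = 0.0779). The differences of the others were 0.57 for Idi1, 0.47 for Acat2, 0.44 for Pmvk, 0.37 for Mvd, 0.33 for Fdps and 0.09 for Hmgcs1. Both miR-193b arrays lay above both NC arrays for Mvk, Idi1, Acat2, Pmvk and Fdps (71.4% of the block, against 30% of all genes).

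After miR-365a, 5 of these 7 genes were below 0, with a median of -0.12. The lowest were Hmgcs1 at -0.37, Pmvk at -0.37 and Fdps at -0.29. For these 3 both miR-365a arrays lay below both NC arrays (42.9% of the block, against 27.8% of all genes). For 1, Mvk, they lay above both (14.3%, against 33.8% of all genes). Pmvk, for example, read 2.99 and 2.92 on the miR-365a arrays, against 3.42 and 3.24 on NC arrays 3 and 4. Acat2 was at -0.12, Idi1 at -0.06, Mvd at 0.09 and Mvk at 0.16. The effect of miR-365a minus that of miR-193b was below 0 for all 7 (Mvd was above 0 without NC replicate 2), from -0.81 for Pmvk (95% interval -1.37 to -0.26, adjusted p = 0.117) to -0.28 for Mvd, and 0 of the 7 passed the test of that difference, beside 3.54% of all genes.

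Sqle, the epoxidase that commits squalene to sterols and a control point of the pathway, fell after miR-365a. It read 2.99 and 2.95 on the miR-365a arrays, against 3.81 and 3.71 on NC arrays 3 and 4. All 4 values of its set were separated by group, and the difference was -0.79 ± 0.16 (SE, adjusted p = 0.0253), 1.73-fold lower. On the miR-193b arrays it read 4.11 and 3.71, against 3.63 and 3.47 on NC arrays 1 and 2, a difference of 0.36 (adjusted p = 0.259). The test between the 2 effects gave -1.15 for Sqle (95% interval -1.70 to -0.60), with an adjusted p of 0.0522. Its neighbours were not called: Fdft1, squalene synthase, was at -0.09 after miR-365a and -0.03 after miR-193b, and Lss, which closes the sterol rings to give lanosterol, at 0.15 and -0.11.

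Of the steps from lanosterol to cholesterol, Sc5d and Cyp51 fell after miR-365a. Sc5d, the desaturase that acts on lathosterol near the end of the pathway, read 1.46 and 1.19 on the miR-365a arrays, against 2.90 and 2.80 on NC arrays 3 and 4. The difference was -1.52 ± 0.13 (SE, adjusted p = 0.00328), 2.87-fold lower, and it was called in all 19 alternative settings run for it. On the miR-193b arrays Sc5d read 3.05 and 3.01, against 2.88 and 2.86 on NC arrays 1 and 2, so 6 of the 8 arrays lay within a narrow band and the miR-365a pair stood below it. After miR-193b the difference was 0.16 (adjusted p = 0.496), and the effect of miR-365a minus that of miR-193b was -1.68 ± 0.18 (95% interval -2.12 to -1.24, adjusted p = 0.0148).

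Cyp51, which removes a methyl group from lanosterol, read -2.03 and -2.46 on the miR-365a arrays, against -0.75 and -0.94 on NC arrays 3 and 4. The groups do not overlap, and the difference was -1.40 ± 0.36 (SE, adjusted p = 0.0477), 2.64-fold lower and close to the threshold. On the miR-193b arrays it read -0.55 and -1.53, against -0.22 and -0.80 on NC arrays 1 and 2; these overlap, and the difference was -0.53 (adjusted p = 0.429). The other 5 genes of these steps were not called after miR-365a. Tm7sf2, a sterol reductase, was at 0.32, Dhcr7, the reductase of the last step, at 0.18, Nsdhl and Hsd17b7, which act in removing methyl groups, at 0.13 and 0.03, and Ebp, the isomerase that moves a ring double bond, at -0.03. After miR-193b these 5 were at 0.48, 0.27, 0.46, 0.51 and 0.02, in the same order.

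**Figure D2:**
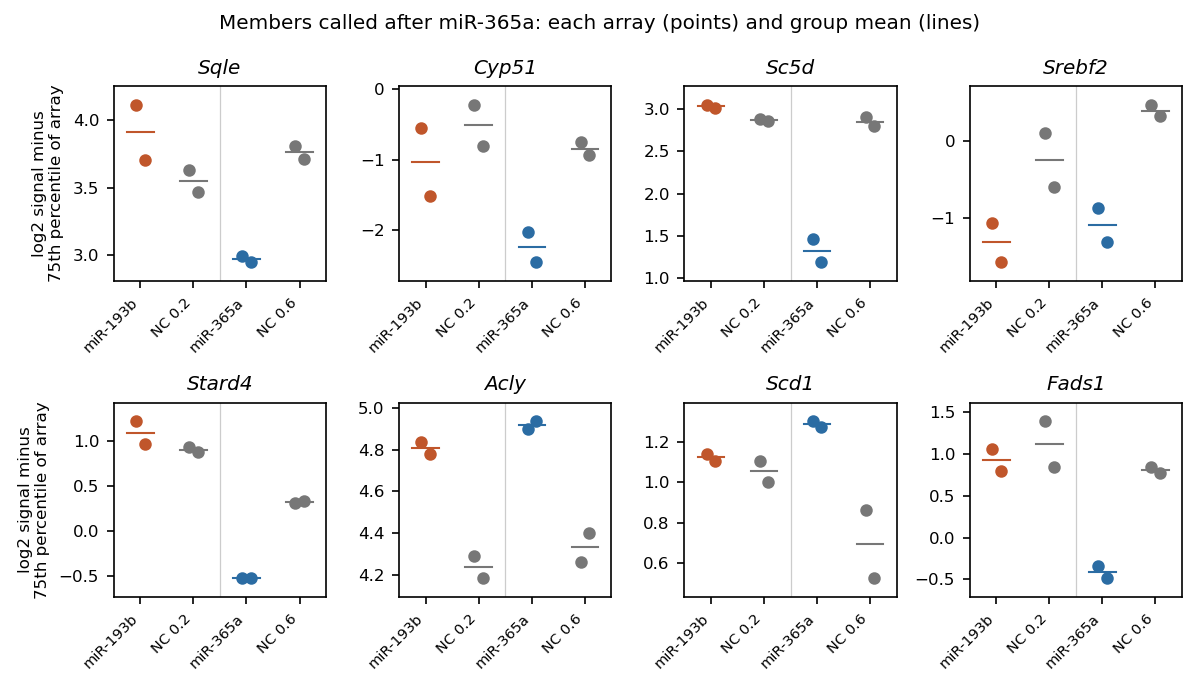
Normalised log2 signal (vertical axis) of the 8 members called after miR-365a on each array (points), with group means (lines), for miR-193b, NC of the 0.2 set, miR-365a and NC of the 0.6 set. In each panel the miR-365a pair is apart from the NC 0.6 pair; for Sc5d it is at 1.46 and 1.19 where the other 6 arrays are between 2.80 and 3.05.

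In the SREBP system, Srebf2, whose product chiefly drives sterol genes, was the member called. It read -0.88 and -1.32 on the miR-365a arrays, against 0.46 and 0.31 on NC arrays 3 and 4. The difference was -1.49 ± 0.29 (SE, adjusted p = 0.0228), 2.81-fold lower. On the miR-193b arrays it read -1.07 and -1.57, against 0.10 and -0.60 on NC arrays 1 and 2. The miR-193b arrays were again below both of theirs, by -1.07 ± 0.29, but this did not pass the test (adjusted p = 0.109). The 2 effects on Srebf2 differed by -0.42 (95% interval -1.42 to 0.59, adjusted p = 0.62). A second, dimmer Srebf2 probe gave -0.56 after miR-365a (adjusted p over probes = 0.609) and -0.94 after miR-193b (0.408), so the call rests on the brightest probe; with the mean of both probes the difference after miR-365a was -1.02 and was not called.

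Srebf1, whose product chiefly drives fatty acid genes, was at 0.26 after miR-365a and 0.29 after miR-193b, with both microRNA arrays above both NC arrays in each set and neither difference called. Scap was at -0.20 after miR-365a and 0.02 after miR-193b. Insig1 read -2.71 and -2.50 on the miR-365a arrays, against -2.27 and -2.13 on NC arrays 3 and 4, and -0.58 and -1.55 on the miR-193b arrays, against -1.26 and -2.04 on NC arrays 1 and 2. Its differences, -0.41 and 0.59, were not called, and the 0.2 set was spread over more than 1 log2 unit for this gene. Insig2 was at 0.01 after miR-365a and 0.47 after miR-193b.

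Of the sterol carriers, Stard4, which shuttles cholesterol between membranes, fell after miR-365a. It read -0.52 on both miR-365a arrays, against 0.31 and 0.33 on NC arrays 3 and 4. The difference was -0.84 ± 0.12 (SE, adjusted p = 0.00997), 1.79-fold lower. On the miR-193b arrays it read 1.22 and 0.97, against 0.93 and 0.87 on NC arrays 1 and 2, a difference of 0.19 (adjusted p = 0.406), and the effect of miR-365a minus that of miR-193b was -1.03 ± 0.17 (95% interval -1.45 to -0.61, adjusted p = 0.0357). A second Stard4 probe gave -0.50 after miR-365a (adjusted p over probes = 0.153). Abca1, which exports cholesterol from cells, was dim; it read -3.92 and -4.002 on the miR-365a arrays, against -4.64 and -4.10 on NC arrays 3 and 4, and -6.32 and -5.56 on the miR-193b arrays, against -5.23 and -4.51 on NC arrays 1 and 2. Neither of its differences, 0.41 (adjusted p = 0.503) and -1.07 (adjusted p = 0.154), was called.

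The fatty acid members split after miR-365a. Acly, which makes cytosolic acetyl-CoA from citrate for both pathways, read 4.90 and 4.94 on the miR-365a arrays, against 4.26 and 4.40 on NC arrays 3 and 4. It rose by 0.59 ± 0.11 (SE, adjusted p = 0.0211), 1.50-fold. It was as high on the miR-193b arrays, at 4.83 and 4.78, against 4.29 and 4.18 on NC arrays 1 and 2. That difference was 0.57 ± 0.11 but missed the threshold (adjusted p = 0.0558). The 2 effects on Acly differed by 0.02 (95% interval -0.37 to 0.40). A second, dimmer Acly probe was at 0.43 after miR-365a and 0.72 after miR-193b, not called in either.

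Scd1, the desaturase that makes oleate, read 1.30 and 1.27 on the miR-365a arrays, against 0.86 and 0.52 on NC arrays 3 and 4, and rose by 0.60 ± 0.14 (SE, adjusted p = 0.0388). The NC arrays of this set spread more than the miR-365a arrays did, and without NC replicate 4 the difference was 0.43. It read 1.14 and 1.11 on the miR-193b arrays, against 1.11 and 1.00 on NC arrays 1 and 2. After miR-193b Scd1 was at 0.07 (adjusted p = 0.801). Its paralogue Scd2, also a stearoyl-CoA desaturase, was at -0.19 after miR-365a and 0.27 after miR-193b, neither called.

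Fads1, a desaturase in the synthesis of arachidonic acid, read -0.34 and -0.49 on the miR-365a arrays, against 0.85 and 0.77 on NC arrays 3 and 4. It fell by 1.23 on the log2 scale (SE 0.20, adjusted p = 0.014), 2.34-fold lower. On the miR-193b arrays it read 1.06 and 0.80, against 1.39 and 0.85 on NC arrays 1 and 2, which overlap. The effect of miR-365a minus that of miR-193b was -1.04 (95% interval -1.73 to -0.34, adjusted p = 0.11). Fads2, which acts before Fads1 in the same route, was at -0.14 after miR-365a and -0.35 after miR-193b and was not called.

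The enzymes at the core of fatty acid synthesis were not called after either microRNA. Acaca, which makes malonyl-CoA, was at 0.14 after miR-365a and -0.21 after miR-193b; its next brightest probe, at 0.15 and -0.25, is placed by the files on another chromosome, 12 in place of 11. Fasn, the synthase, was at -0.19 and -0.39, and Elovl6, which lengthens palmitate, at -0.32 and -0.10, in the same order. Acsl3, which activates fatty acids with CoA, was at -0.27 and 0.35, with no overlap of arrays in either set.

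**Figure D3:**
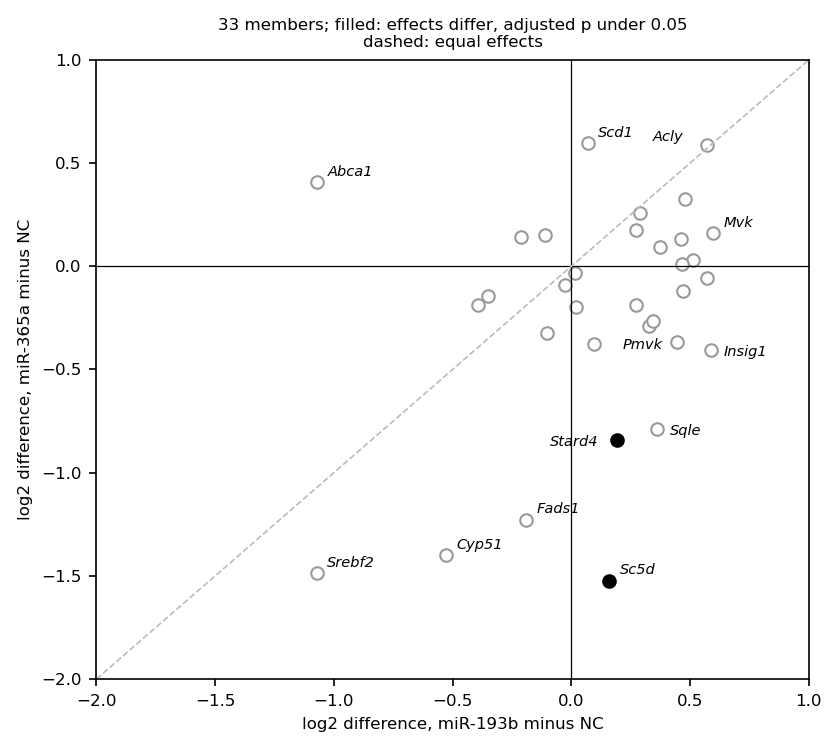
Log2 difference from NC after miR-193b (horizontal axis) and after miR-365a (vertical axis) for the 33 members, 1 point each, with a dashed line where the effects are equal. The filled points, Sc5d and Stard4, are those whose effects differed at an adjusted p under 0.05; 13 members are at the lower right, above 0 after miR-193b and below 0 after miR-365a.

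Set side by side, 13 members were above 0 after miR-193b and below 0 after miR-365a, 3 were the other way round (Lss, Abca1 and Acaca), 10 were above 0 in both and 7 below 0 in both. Many of these differences were small: of the members not called, 8 of 33 after miR-193b and 8 of 25 after miR-365a changed sign in at least 1 alternative setting. The effect of miR-365a minus that of miR-193b had a median of -0.42 over the members, against -0.02 over all genes. It was below 0 for 26 of 33, beside 51.9% of all genes. It was called for 2 of 33 (6.06%), Sc5d and Stard4, both lower, where 2.41% of all genes were called lower; 0 members were called higher, where 1.13% of all genes were. Because each microRNA was run in its own set, the amount label, slide and scan differ between the effects compared.

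Other genes of lipid metabolism were read from 4 further lists, chosen with earlier results of these data known. Their shares beside all genes are descriptions and not tests of the lists. Of 24 sterol regulators, carriers and oxysterol genes tested, 1 rose (4.17%, beside 1.73% of all genes) and 0 fell (beside 1.17%) after miR-193b. After miR-365a, 4 rose and 4 fell (16.7% each, beside 7.8% and 8.04% of all genes). Erlin2, part of the endoplasmic reticulum complex that degrades sterol-regulated proteins, was the one called in both: it read -0.29 and -0.33 on the miR-365a arrays, against 0.37 and 0.43 on NC arrays 3 and 4, and 1.09 and 1.10 on the miR-193b arrays, against 0.41 and 0.49 on NC arrays 1 and 2. It fell by 0.71 on the log2 scale after miR-365a (adjusted p = 0.01) and rose by 0.64 after miR-193b (adjusted p = 0.038), and the effects differed by -1.35 (adjusted p = 0.0148). The call after miR-193b held in 7 of 19 alternative settings and in 0 of the 8 that left out 1 array. With slide as a fixed block, its miR-193b estimate rests on the slide 1 pair alone, 1 array against 1. That difference was 0.68. The call after miR-365a held in 16 of 19 and that of the difference in 11 of 18.

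The others that fell after miR-365a were Soat1, which esterifies cholesterol (-1.52), Mbtps2, the protease that releases SREBPs (-0.80), and Lbr, which also carries sterol reductase activity (-0.73). Those that rose were Ch25h, which makes an oxysterol (1.43), the sterol exporter Abcg1 (0.72), the lysosomal cholesterol carrier Npc2 (0.67) and the sterol-binding protein gene Osbpl2 (0.58). Their adjusted p ran from 0.0141 for Npc2 to 0.0303 for Soat1. Abcg1 read -0.07 and -0.15 on the miR-365a arrays, against -1.02 and -0.65 on NC arrays 3 and 4, and -4.91 and -4.80 on the miR-193b arrays, against -4.25 and -4.10 on NC arrays 1 and 2. The sets were thus far apart for this gene, and miR-193b replicate 1 was not well above background. The effects on Abcg1 differed by 1.40 (adjusted p = 0.0299), a call that held in 6 of 17 alternative settings and in 0 of the 8 that left out 1 array; the value was 0.82 with normexp background correction. After miR-365a, Soat1, Lbr, Abcg1 and Osbpl2 were not called with arrays of the same amount label only. Slide as a fixed block gives that same fit for miR-365a, because the whole 0.6 set lay on slide 4. It therefore says nothing about slide for these genes. The Soat1 difference was -0.84 with normexp background correction and -0.69 with the deposited log2 values.

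Of 12 genes of the isoprenoid branches tested, 0 were called after miR-193b, beside 2.9% of all genes. An unadjusted p under 0.05 was held by 2 of the 12, beside 21.4% of all genes. After miR-365a, 3 fell (25%, beside 8.04% of all genes). They were Pggt1b (-0.83) and Rabggta (-0.71), subunits of enzymes that attach geranylgeranyl groups to proteins, and Pdss2 (-0.66), which builds the side chain of ubiquinone. Of 27 further genes of fatty acid and glycerolipid synthesis, 0 were called after miR-193b, beside 2.9% of all genes. An unadjusted p under 0.05 was held by 8 of the 27, beside 21.4% of all genes. After miR-365a, 3 rose, namely Me1, the malic enzyme that supplies NADPH (0.68), Aacs, which activates acetoacetate for lipid synthesis (0.58), and the acyl-CoA synthetase Acsl4 (0.48). A further 3 fell, namely the desaturase family member Fads3 (-0.73), the elongase Elovl4 (-0.62) and Hsd17b12, an enzyme of the elongation cycle (-0.53). These are 11.1% of the list in each direction, near the 7.8% and 8.04% of all genes. Acsl4 and Hsd17b12 were called in 0 of the 8 fits that left out 1 array. Acsl4, Hsd17b12 and Fads3 were not called with arrays of the same amount label only. Elovl4 was at -0.39 and not called with the mean of its probes.

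The fatty acid oxidation genes, which break down what the synthesis genes make, included 8 that rose after miR-365a. They were 8 of 20 tested (40%, beside 7.8% of all genes). In this list 0 fell, beside 8.04% of all genes, and 4 of the 20 differences were below 0, beside 47% of all genes. The list median was 0.53. The list was chosen with earlier results of these data known, so these shares are descriptions and not tests. Cpt1a, the gate of fatty acid entry into mitochondria, read 2.66 and 2.64 on the miR-365a arrays, against 1.37 and 1.40 on NC arrays 3 and 4, and 1.17 and 1.27 on the miR-193b arrays, against 1.28 and 0.99 on NC arrays 1 and 2. It rose by 1.27 ± 0.13 (SE, adjusted p = 0.00474) after miR-365a, stood at 0.09 after miR-193b, and the effects differed by 1.18 (adjusted p = 0.031). The peroxisomal enzyme gene Ehhadh rose by 1.33 (adjusted p = 0.0093), and its effects differed by 1.40 (adjusted p = 0.0497). The difference between the effects was called in 9 of 18 alternative settings for Cpt1a and 7 of 18 for Ehhadh, of which 1 and 0 of the 8 that left out 1 array. With slide as a fixed block, the miR-193b side of each rests on the slide 1 pair alone, 1 array against 1. That side was -0.10 for Cpt1a and -0.35 for Ehhadh.

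The remaining 6 were the dehydrogenases Acads (1.28), Hadh (0.78) and Acadm (0.66), the trifunctional protein subunit gene Hadhb (0.67), the thiolase Acaa2 (0.57) and the reductase Decr1 (0.59). Hadha, the gene of the other subunit, went the other way after miR-365a, at -0.40 (adjusted p = 0.132 in limma's test). The other oxidation genes below 0 were Cpt1b (-0.65), Ppard (-0.26) and Acadvl (-0.06), none of them called. After miR-193b, 1 of the 20 was called (5%, beside 2.9% of all genes), namely Decr1. It read 0.85 and 0.86 on the miR-193b arrays, against 0.14 and 0.27 on NC arrays 1 and 2, and rose by 0.65 (adjusted p = 0.0495). That call held in 6 of 19 alternative settings and in 0 of the 8 that left out 1 array. With slide as a fixed block, the Decr1 estimate rests on the slide 1 pair alone, 1 array against 1, where the difference was 0.71. The list median after miR-193b was 0.19. The count after miR-365a also rested on few arrays: it was 2 without miR-365a replicate 1 or NC replicate 3, 1 without miR-365a replicate 2 and 4 without NC replicate 4, and Cpt1a was called in all 19 alternative settings.

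**Figure D4:**
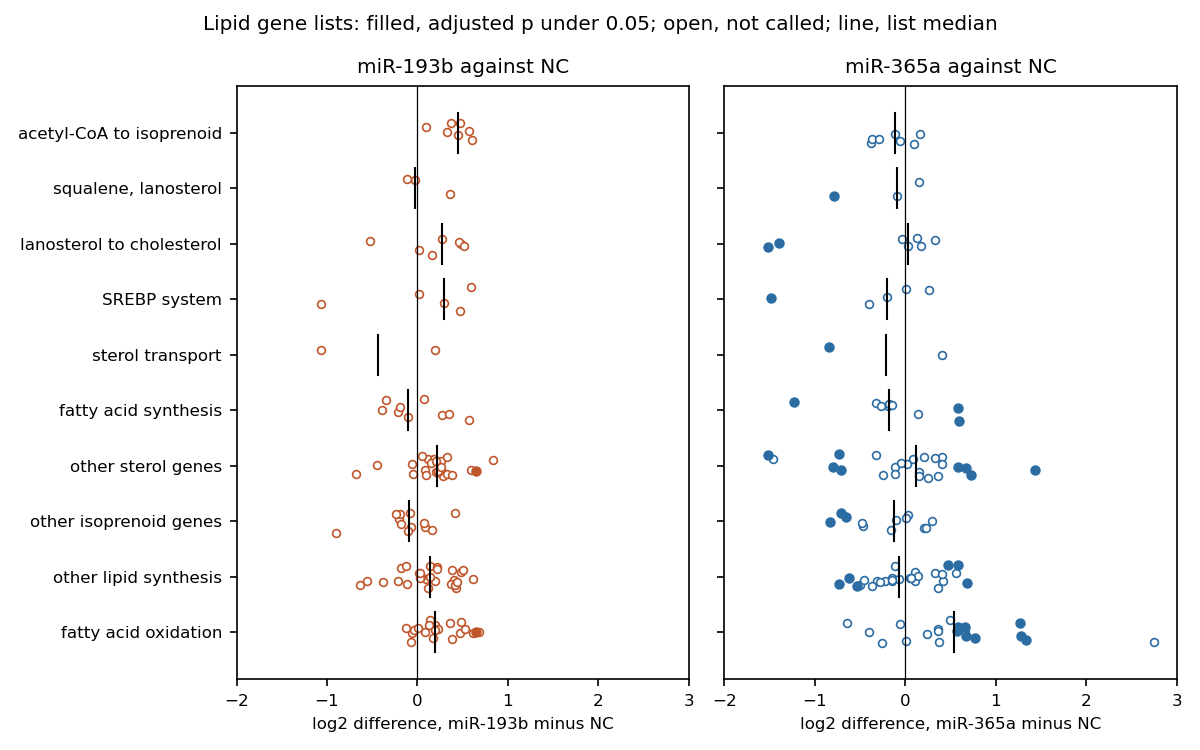
Log2 differences from NC (horizontal axis) of the tested genes in the 6 role groups of the members and in 4 further lists of lipid genes, after miR-193b (left) and miR-365a (right). Points are genes, filled where the adjusted p was under 0.05, and the black line is the list median; the oxidation list after miR-365a has its median at 0.53 and 8 filled points, all above 0.

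The probes of the members called after miR-365a are placed by the array files on mm9 as follows. Sc5d lies at chr9:42062857-42062916, Cyp51 at chr5:4081471-4081530, Sqle at chr15:59162688-59162747 and Srebf2 at chr15:82034765-82034824. Fads1 lies at chr19:10270530-10270589, Scd1 at chr19:44469387-44469446 and Acly at chr11:100337674-100337733, and Stard4 is on chromosome 18. Sc5d, Cyp51, Sqle, Fads1 and Scd1 had 1 probe each. Scd1 and Scd2 are close paralogues, and cross-hybridisation between them was not tested.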

How the data were processed

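Total RNA of 8 samples was measured on single-colour Agilent arrays. Per the file headers, the deposited intensity is the processed signal from version 10.7.3.1 of the Agilent Feature Extraction scanner software, from which background and a spatial trend had been removed array by array, with probe positions on mm9. A table of log2 values deposited by the authors for the same arrays served as an alternative; its array medians were 7.04 to 7.05, the submitters' processing notes name limma without a version, and its background correction is not given in the sources used here. Its scale matches log2, with no centring of genes, and each of the 8 columns correlated best with its own array.

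From the intensities, control spots and spots flagged as outliers were left out, spots of a probe were averaged, and log2 values were centred on the 75th percentile of each array. Gene names came from the files, updated by accession, symbol or synonym through RefSeq (GRCm38.p6) for all but 7951 of 39429 probes. Genes were tested if the brightest probe was well above background on the whole of 1 or more of the 4 pairs of arrays that share a transfection and an amount. Limma 3.58.1 (R 4.3.3) fitted all 8 arrays with a term for the amount label (4 residual degrees of freedom), adjusting p-values by Benjamini-Hochberg over all 17849 genes. Calls are at an adjusted p under 0.05. Precision is limited by how few arrays there are. The procedure was tested on simulated data with independent noise and no effect of amount or slide. That test therefore does not cover such effects.

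The members and the other lists were chosen with earlier results of these data known. Members that passed the test were given with the value on every array, members that did not by their log2 difference, and genes of the other lists where called. The array values of Mvk, Pmvk, Insig1 and Abca1, which did not pass, were added after they were seen. The differences of the oxidation genes below 0 after miR-365a were added in the same way. Alternatives were other background corrections, normalizations, filters, probe choices and variance fits, slide as a block, and leaving out each array.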

Additional observations from a re-analysis of the deposited data

Results flagged for a closer look

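Fads1 had 1 NC array apart from the other 3: NC replicate 1 read a normalised log2 signal of 1.39, and its gap to the nearest NC array was 0.87 of the range of the 4 NC arrays, past Dixon's critical value. Chance gives such a gap in about 1 in 20 groups, and 1 of the 33 members showed it. The 4 NC arrays come from 2 sets.

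The effects of the microRNAs on 2 members differed in limma's test of the difference itself. For Sc5d the effect of miR-365a minus that of miR-193b was -1.68 on the log2 scale, and for Stard4 it was -1.03. Sc5d kept this call in 11 of 18 alternative settings and Stard4 in 6 of 18; leaving out 1 array at a time, they kept it in 3 and 0 of 8. The amount label, slide and scan differ between the sets in which the effects were measured and cannot be told apart from the microRNA.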

How the results depend on the processing

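No called gene and no members' median after either microRNA changed direction under the alternatives run, and Sc5d after miR-365a was called in all 19. Replicates could not be paired because the labels number none. In the 0.2 set only slide 1 held both a miR-193b and an NC array. Members higher after miR-193b (0 in the report) came to 2, Mvk and Acly, under normexp, under a filter asking for signal above background everywhere and under a trended robust variance, and to 1 with the deposited log2 values. All genes called after miR-193b (517) came to 1001 with normexp, 844 with the deposited values, 11 with no filter on dim probes, 891 with that stricter filter, 1025 with the trended variance, 0 with arrays of the same amount label only, 171 with slide as a fixed block, and 8 to 276 leaving out 1 array. The members' median after miR-193b (0.27) was 0.17 with quantile normalization, 0.12 with the deposited values, 0.15 between slides 3 and 2, and 0.14 to 0.28 leaving out 1 array. After miR-365a, members higher (2) came to 1 with median centring, with the mean of all probes, with arrays of the same amount label and with the slide block, 0 with no filter, and 0 to 1 leaving out 1 array. Members lower after miR-365a (6) came to 3 with no filter and 1 to 6 leaving out 1 array, and their median (-0.12) to between -0.23 and -0.063. All genes called after miR-365a (2828) came to 1055 with no filter and 601 to 2867 leaving out 1 array. Fatty acid oxidation genes higher after miR-365a (8), run under the alternatives after the data were seen, came to 3 with no filter, 5 with arrays of the same amount label, 5 with the slide block and 1 to 8 leaving out 1 array. For the difference between the effects, members lower (2) came to 1 with median centring, 0 with no filter, 1 with the mean of all probes, 0 with the slide block and 0 to 1 leaving out 1 array. All genes called for that difference (632) came to 1049 with normexp, 978 with the deposited values, 0 with no filter, 1069 with the stricter filter, 1124 with the trended variance, 996 with slide as a random block, 132 as a fixed block, and 0 to 564 leaving out 1 array; it could not be fitted with arrays of 1 amount label. The medians of all genes set beside the members lay near 0 and changed sign: after miR-193b (0.05) to -0.01 with median centring, after miR-365a (0.02) to -0.02 with normexp and -0.08 with no filter, and for the difference (-0.02) to 0.05 with median centring, but -0.13 with normexp and -0.15 with no filter. Of the members not called, 8 of 33 after miR-193b, 8 of 25 after miR-365a and 12 of 31 for the difference changed sign in some setting, a count made after the data were seen; the widest of these was 0.35 in size. The cause of these changes was not tested. Leaving out an array leaves 1 array in a group, assumed to vary like the others. With slide as a fixed block, the miR-193b estimate rests on the pair on slide 1 alone, 1 array against 1. For miR-365a that block gives the same fit as arrays of the same amount label only, since all of these lay on slide 4.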

Other observations

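The NC arrays of the 2 sets also differed in the members. NC of the 0.6 set minus NC of the 0.2 set had a median of 0.04 over the members and 0.12 over all genes tested. Both NC arrays of the 0.6 set lay above both of the 0.2 set for 11 members (33.3%, against 40.4% of all genes), among them Srebf1, at -2.57 and -3.59 on average, and Srebf2, at 0.39 and -0.25. They lay below for 5 (15.2%, against 21.4% of all genes), among them Stard4, at 0.32 and 0.90, and Insig1, at -2.20 and -1.65. No test was made of these differences.

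Pdk4, a kinase that turns cells from glucose to fatty acid oxidation, had the widest difference of the oxidation list after miR-365a, 2.75, without passing the test (adjusted p = 0.0761). It read -0.98 and 0.76 on the miR-365a arrays, against -3.93 and -1.79 on NC arrays 3 and 4, so the replicates within each group were themselves far apart. It is named here after its values were seen.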
